A study of Saccharomyces cerevisiae with 38 samples.

Results

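The antioxidant enzyme genes of budding yeast were taken as 10 genes picked by symbol from the annotation of the array's spots. They were the catalase gene CTT1 (YGR088W), the superoxide dismutase genes SOD1 (YJR104C) and SOD2 (YHR008C), the thioredoxin genes TRX1 (YLR043C) and TRX2 (YGR209C), the peroxiredoxin genes PRX1 (YBL064C), TSA1 (YML028W), TSA2 (YDR453C) and AHP1 (YLR109W), and the glutathione reductase gene GLR1 (YPL091W). All 10 were found among 5548 genes with a spot, each on 1 spot. A value was present on every array for 9 of the 10 members and for 5119 of the 5548 genes, and GLR1 had none on 6 arrays.

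Superoxide made by respiration is turned to hydrogen peroxide by superoxide dismutases, Sod1 in the cytosol and Sod2 in the mitochondrial matrix. Hydrogen peroxide is then broken down by catalase (Ctt1 in the cytosol) or reduced by peroxiredoxins, which take their electrons from thioredoxin or glutathione and in the end from NADPH. In yeast many of these genes belong to the general stress response under the activators Msn2 and Msn4, and several are also driven by the oxidant sensor Yap1.

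The study set histone acetyltransferase (HAT) mutants beside an allele of TAF1, the largest subunit of the general transcription factor TFIID, and asked how the 2 kinds of factor relate across the genome. Each of 38 two-colour arrays of PCR-amplified yeast genes carried polyA RNA of a strain in 1 dye and of the WT strain yMD13 in the other. Cultures in CSM-HIS medium at an OD600 of about 0.8 were shifted to 37 °C and harvested after 45 minutes, WT included, so the heat shift is common to all groups. No array lacks the shift, so a heat response that differs between strains cannot be told apart from other effects of a mutation. The double mutants elp3 ts2, esa1 ts2, gcn5 ts2, hat1 ts2, hpa2 ts2 and sas3 ts2 combine the TAF1 allele ts2 with a HAT mutation and had 2 arrays each, with the dyes swapped. The ts2 allele alone (strain yMD14) had 6 arrays, the HAT mutants elp3, esa1, gcn5, hat1, hpa2 and sas3 had 2 each with the dyes swapped, and WT against WT had 8. The labels name the strains but not what was done to each HAT gene, nor whether a group's arrays hold RNA of different cultures, so the spread behind each p-value could be technical only. GCN5 and HAT1 themselves were lower on the arrays so labelled than on any other (-3.41 to -2.22 against -0.42 to 0.54 on the other 34 arrays for GCN5, and -3.86 to -2.70 against -0.98 to 0.98 for HAT1). HAT1 was also called lower in esa1 ts2, by less (-0.90, adjusted p = 0.000429). SAS3 was lower in sas3 ts2 (-1.19, adjusted p = 0.016) and lay at -1.59 in sas3 without passing (adjusted p = 0.114). ELP3 lay at 0.05 in elp3 (95% interval -0.18 to 0.28) and HPA2 at 0.20 in hpa2 (-0.86 to 1.27), so neither showed a loss, and ESA1 was higher in esa1 (0.97) and TAF1 in ts2 (0.27). The label of hpa2 ts2 array A gives the strain number of elp3, and this array was kept under its title. The ts2, elp3, esa1 and hpa2 arrays are therefore named here by label alone.

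Values below are log2 ratios of a strain's RNA to WT RNA, less the median over genes of that array. They hold no level of a gene, only a ratio to WT, and fewer cells carrying a transcript cannot be told apart from less transcript per cell. A change is a coefficient of 1 linear model over all arrays, with its standard error (SE), and a gene passed the test, or was called, at an adjusted p under 0.05 (limma's moderated test with Benjamini-Hochberg adjustment over all genes of a comparison). Array medians of the deposited ratios ran from 0.326 to 2.4, so subtracting them matters. On the log2 scale as deposited, the median gene lay on average at -1.03 in esa1 ts2, -0.60 in gcn5 ts2, -0.36 in ts2, -0.44 in esa1 and 0.19 in gcn5, against 0.31 on the WT arrays, whose medians ran from -0.71 to 1.32. All changes are relative to these medians, and the results on the deposited scale stand beside those they alter. The share of all genes called on the deposited scale is not given here, so a loss of calls there cannot be read as particular to the members. Of 342 pairs of arrays with the same dye orientation, 1 pair opposed each other (hpa2 array A and ts2 array A, r = -0.309), and the direction its label gives was kept. The alpha-specific mating genes fell in ts2 and gcn5 and in all 6 double mutants (4 of 4 in each, but 3 of 4 in hat1 ts2), and none of the 4 was called in elp3, esa1, hat1, hpa2 or sas3. Array medians of these genes were -2.32 to -2.03 in gcn5 ts2, -2.14 to -1.58 in sas3 ts2, -2.08 to -1.94 in hpa2 ts2, -1.78 to -1.56 in esa1 ts2, -1.75 to -1.36 in elp3 ts2, -1.24 to -0.74 in hat1 ts2, -2.50 to -1.07 in ts2 and -1.96 to -1.50 in gcn5, against -0.75 to 0.38 on WT arrays. Their part in the results below was not tested.

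In ts2, 9 of the 10 antioxidant genes differed from WT, 8 higher and 1 lower, where 65.2% of all genes tested passed (32% higher and 33.2% lower). The members' median change was 1.74, against 0.01 over all genes tested. Among these members CTT1, both dismutases, the 4 listed peroxiredoxins and TRX2 rose, the other listed thioredoxin gene TRX1 fell, and GLR1 did not pass. These 9 genes were also called with any single array removed, on the deposited scale, and within each of the 3 ranges of array title numbers that held ts2 arrays. Overlap of arrays between groups is described below for the members, here and in the other mutants. The share of all genes without overlap was not counted for any pair of groups.

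CTT1, the cytosolic catalase, lay between 2.36 and 3.40 on the 6 ts2 arrays with a median of 2.82, against -0.28 to 0.46 with a median of 0.08 on the 8 WT arrays. The 2 groups did not overlap. Its change of 2.80 (SE 0.15, adjusted p = 2.28e-15) is a 6.98-fold rise and was the 7th highest of 5546 genes tested.

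SOD1, the copper and zinc enzyme of the cytosol, lay between 1.61 and 2.38 on ts2 arrays (median 2.04), against -0.27 to 0.40 on WT arrays (median 0.08). SOD2, the manganese enzyme of mitochondria, lay between 1.29 and 2.12 on ts2 arrays (median 1.82), against -1.97 to 0.40 on WT arrays (median 0.21). Neither gene overlapped between the groups, and for SOD2 the WT range was set by array D alone, since its next lowest WT value was -0.44. SOD1 rose 4.10-fold (2.04, SE 0.10, adjusted p = 1.33e-15) and SOD2 3.35-fold (1.75, SE 0.19, adjusted p = 7.93e-09).

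The thioredoxins, small proteins that pass electrons to peroxiredoxins and other targets, went opposite ways. TRX1 lay between -2.52 and -1.59 on ts2 arrays with a median of -1.88, against -0.24 to 0.26 with a median of -0.17 on WT arrays. TRX2 lay between 1.19 and 1.62 on ts2 arrays with a median of 1.57, against -0.55 to 0.35 with a median of 0.03 on WT arrays. In neither gene did the groups overlap, and the 2 genes lay on opposite sides of WT on all 6 ts2 arrays. TRX1 was 3.87-fold lower (-1.95, SE 0.10, adjusted p = 1.32e-15), the 5th lowest of 5546 genes, and TRX2 was 2.77-fold higher (1.47, SE 0.08, adjusted p = 2.95e-15). The coding sequences of TRX1 and TRX2 are alike, as are those of TSA1 and TSA2, and a spot of one may also capture RNA of the other, so each value can hold a share of its paralog.

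Among the peroxiredoxins, PRX1, the mitochondrial one, lay between 2.12 and 2.65 on ts2 arrays (median 2.43), against -0.47 to 0.28 on WT arrays (median -0.07). TSA1, the most abundant cytosolic one, lay between 1.55 and 1.97 on ts2 arrays (median 1.71), against -0.15 to 0.34 on WT arrays (median -0.00). PRX1 rose by 2.43 (SE 0.07, adjusted p = 4.64e-20) and TSA1 by 1.73 (SE 0.06, adjusted p = 2.41e-18), with no overlap between groups for either. TSA2, the inducible cytosolic paralog, was more scattered, between 1.498 and 2.96 on ts2 arrays (median 2.05), against -0.67 to 0.29 on WT arrays (median -0.12). AHP1, which prefers alkyl hydroperoxides, lay between 1.37 and 1.62 on 5 ts2 arrays and at 2.19 on array A, against -0.23 to 0.32 on WT arrays (median -0.09). TSA2 rose by 2.09 (SE 0.16, adjusted p = 6.06e-12) and AHP1 by 1.56 (SE 0.10, adjusted p = 3.35e-13), and here too the groups did not overlap.

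GLR1, which returns oxidised glutathione to its reduced form, behaved differently from the other 9. It was measured on 5 ts2 arrays, at -1.62, -0.96, -0.09, -0.07 and 2.22, against -2.00 to 0.21 on 7 WT arrays (median 0.04). The ts2 arrays overlapped the WT range except for array E, which lay above it, and the change of -0.15 (SE 0.44, adjusted p = 0.777) has a 95% interval of -1.06 to 0.75. The spot was uneven between the ranges of title numbers. On the arrays of the 2 lower ranges GLR1 stayed between -0.63 and 0.31, while in the 2 upper ranges, which hold all esa1, hat1 and sas3 arrays, it ran from -2.00 to 3.43 and held all 6 values that were not above 0.

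**Figure D1:**
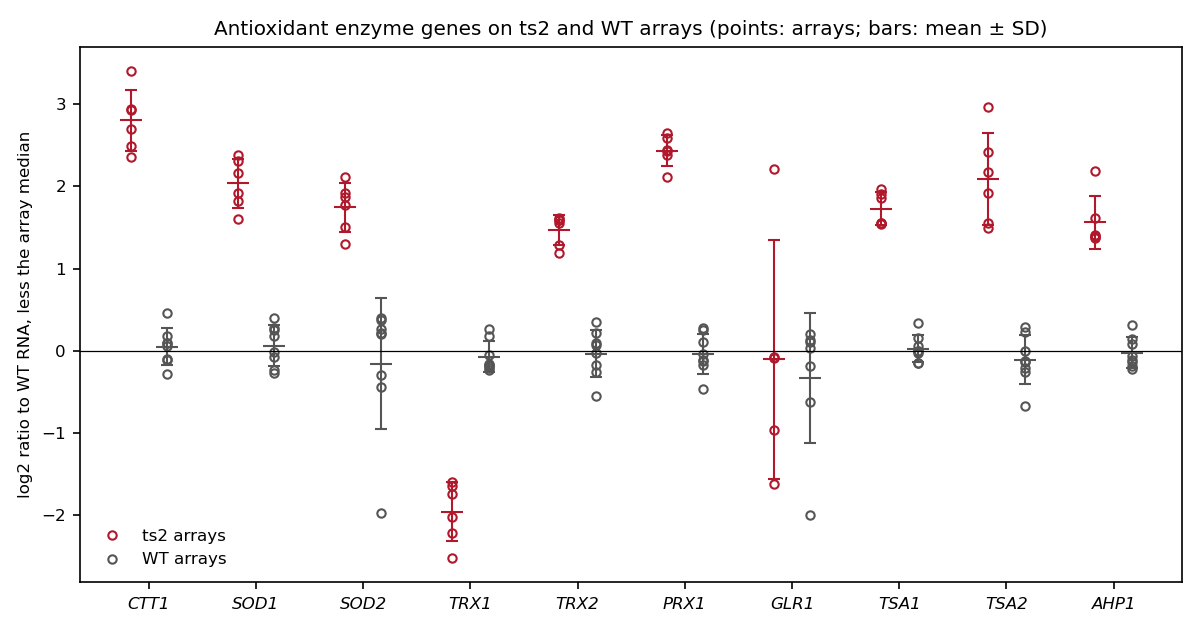
Log2 ratio to WT RNA less the array median for the 10 genes, with ts2 arrays (red, left of each pair) and WT arrays (grey); points are arrays and bars the mean ± SD. For 9 genes the ts2 arrays lie apart from WT, TRX1 at -2.52 to -1.59 and the rest above 1, while GLR1 spreads from -1.62 to 2.22. The share of all genes lying apart in this way was not counted, and 65.2% of all genes passed the test in ts2.

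Of the HAT mutants, esa1 and gcn5 had antioxidant genes called and the other 4 groups had none. In esa1, 9 of 10 members passed, 8 higher (GLR1 among them, on the uneven spot described above) and TRX1 lower, where 28.8% of all genes did (median of the members 0.97, and -0.00 over all genes tested). In gcn5, 4 of 10 passed, all higher, where 18.5% of all genes did (0.32, and -0.01 over all genes tested). Both mutants were set against RNA of the same WT strain and share the fit's spread and dye term, to which the WT arrays add.

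CTT1 lay at 1.83 and 1.73 on the esa1 arrays and at 1.65 and 2.10 on the gcn5 arrays, all above the highest WT array at 0.46. It rose 3.43-fold in esa1 (1.78, SE 0.26, adjusted p = 6.53e-06) and 3.67-fold in gcn5 (1.88, SE 0.26, adjusted p = 5.5e-06). SOD1 lay at 1.71 and 1.55 in esa1 and at 1.52 and 1.19 in gcn5, against 0.40 at most in WT. Its changes were 1.63 (SE 0.18) in esa1 and 1.35 (SE 0.18) in gcn5. In both strains each of these genes was above every WT array. The share of all genes above every WT array was not counted in esa1 or gcn5. SOD2 in esa1 also lay above every WT array, without passing.

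AHP1 and PRX1 passed in both strains as well. AHP1 lay at 0.94 and 0.83 in esa1 and at 1.82 and 1.37 in gcn5, against 0.32 at most in WT. PRX1 lay at 0.54 and 0.90 in esa1 and at 0.94 and 1.22 in gcn5, against 0.28 at most in WT. AHP1 rose by 0.89 (SE 0.18) in esa1 and by 1.59 (SE 0.18) in gcn5, and PRX1 by 0.72 (SE 0.13) and by 1.08 (SE 0.13), again with no array inside the WT range.

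The cytosolic peroxiredoxins TSA1 and TSA2 passed in esa1 and not in gcn5. TSA1 lay at 1.16 and 0.95 in esa1, above all WT arrays, and at 0.10 and -0.01 in gcn5, within them. TSA2 lay at 1.19 on both esa1 arrays, above all WT arrays, and at 0.02 and 0.03 in gcn5, within them. TSA1 rose by 1.06 (SE 0.11, adjusted p = 7.6e-08) and TSA2 by 1.19 (SE 0.28, adjusted p = 0.00179) in esa1. In gcn5 their changes were 0.05 (95% interval -0.18 to 0.27) and 0.02 (-0.55 to 0.60). The difference between esa1 and gcn5 was not itself tested.

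The thioredoxin genes moved less. TRX2 rose by 0.42 in esa1 (SE 0.14, adjusted p = 0.0204), with arrays at 0.47 and 0.37 just above the highest WT array at 0.35, and lay at -0.37 and -0.22 in gcn5 (change -0.29, adjusted p = 0.142). TRX1 lay at -0.56 and -0.35 in esa1 and at -0.58 and -0.34 in gcn5, below the lowest WT array at -0.24. Its change was called at the edge of the threshold in esa1 (-0.45, SE 0.17, adjusted p = 0.0497) and not in gcn5 (-0.46, SE 0.17, adjusted p = 0.0625), which is no difference between them. SOD2 did not pass in either strain, at 0.93 and 0.47 in esa1 (adjusted p = 0.123) and at 0.96 and 0.25 in gcn5 (adjusted p = 0.242). GLR1 lay at 1.99 and 2.78 in esa1, above all WT arrays (2.39, SE 0.69, adjusted p = 0.0116). These arrays belong to the upper ranges of title numbers where this spot was uneven, with ts2 arrays B and E of the same range at -0.96 and 2.22, and the call was lost without either esa1 array or with the range as a block (1.44, adjusted p = 0.224), so it is not read as a change of the gene. In gcn5 GLR1 lay at -0.10 and -0.02, within the WT range.

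The esa1 calls are less firm than those of ts2. Without esa1 array A 5 members were called (TRX1, TRX2, GLR1 and TSA2 were lost), without array B 6, and on the deposited scale none were (adjusted p of at least 0.203). There CTT1 was still at 1.34, SOD1 at 1.19, TSA2 at 0.75, TSA1 at 0.62 and AHP1 at 0.45, with TRX1 at -0.89, PRX1 at 0.28 and TRX2 at -0.02. The gcn5 calls were the same number without either gcn5 array, and 2 (CTT1 and AHP1) on the deposited scale.

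In elp3, hat1, hpa2 and sas3 none of the members passed limma's test, where 0.452%, 0.572%, 0.401% and 0.163% of all genes did. At an unadjusted p below 0.05 they were 0 of 10 in elp3, 0 of 9 in hat1, 3 of 10 in hpa2 (PRX1, TSA1 and AHP1, all lower) and 1 of 9 in sas3 (PRX1, higher). CTT1 lay at -0.26 and 0.47 in elp3, at 0.42 and 0.26 in hat1, at -1.06 and 0.11 in hpa2 and at -0.04 and -0.45 in sas3, so 2 of these 8 arrays were below and 1 was above the WT range of -0.28 to 0.46. The 95% intervals of its change ran from -0.42 to 0.63 in elp3, -0.18 to 0.87 in hat1, -1.001 to 0.05 in hpa2 and -0.77 to 0.28 in sas3, and a rise as large as in esa1 or gcn5 lies outside all 4. In hpa2, array A stood low for CTT1, SOD1 (-0.79), TSA2 (-1.16) and AHP1 (-0.90), while array B was within the WT range for CTT1, SOD1 (0.21) and TSA2 (0.23). Without hpa2 array B, SOD1 (-0.89) and AHP1 (-0.95) passed as lower in hpa2 (adjusted p = 0.0153 and 0.0302).

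The ts2 pattern recurred in the double mutants. Against WT, 9 of 10 members passed in elp3 ts2, gcn5 ts2 and hpa2 ts2, 9 of the 9 tested in esa1 ts2 and sas3 ts2, and 8 of 10 in hat1 ts2, in each case with TRX1 as the only one lower. Of all genes, 39.6% passed in elp3 ts2, 56.3% in esa1 ts2, 54.1% in gcn5 ts2, 31.5% in hat1 ts2, 45.2% in hpa2 ts2 and 48.2% in sas3 ts2. Over the 13 mutant groups there were 75 calls of members, 67 higher and 8 lower. On the deposited scale there were 51 (45 higher and 6 lower), without a share of all genes to set beside them. CTT1, SOD1, TRX1, TRX2, PRX1, TSA1, TSA2 and AHP1 passed in each of the 7 groups that carry ts2, SOD2 in 6 of them (not in hat1 ts2), and GLR1 in none of the 5 where it could be tested. On the deposited scale 13 of the double mutants' calls were lost. They were TRX1 (-0.94), TRX2 (1.53), TSA1 (1.10) and AHP1 (1.09) in hat1 ts2, SOD2 (1.01), TRX2 (0.20) and TSA2 (0.32) in gcn5 ts2, SOD2 (0.92), TSA2 (1.27) and AHP1 (1.07) in elp3 ts2, TRX2 (0.97) in esa1 ts2, and SOD2 in hpa2 ts2 (1.28) and sas3 ts2 (1.06).

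**Figure D2:**
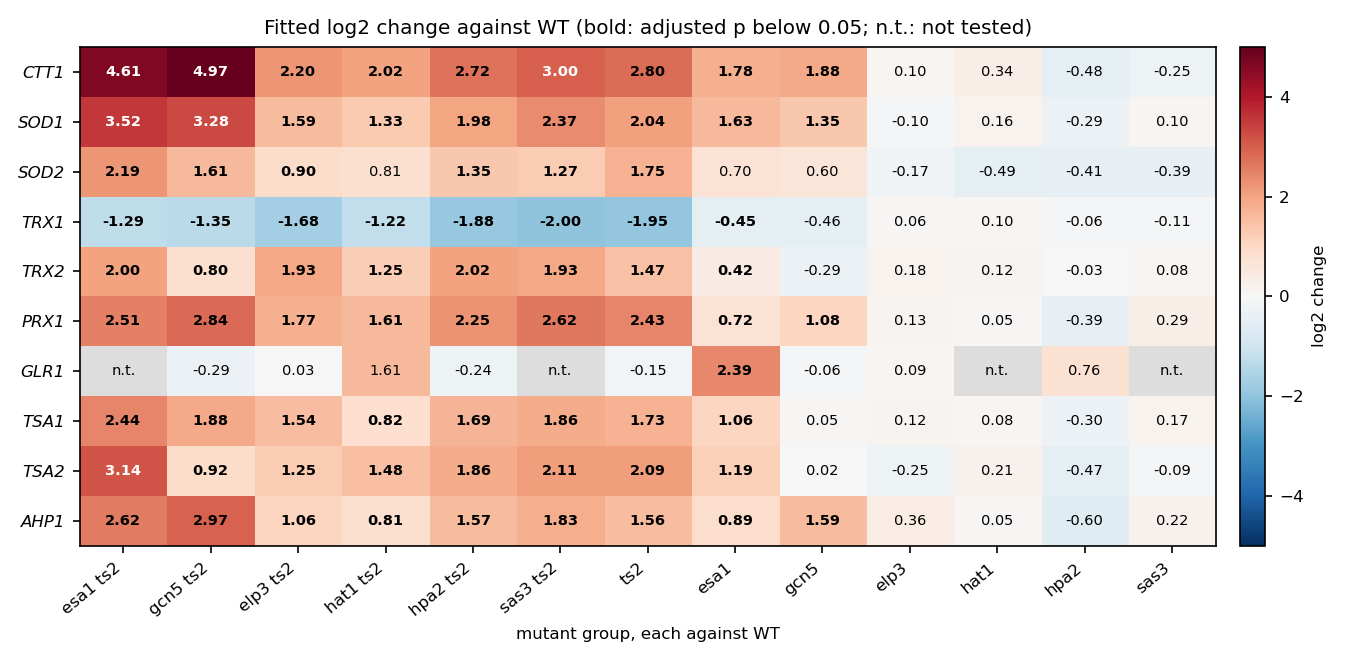
Fitted log2 change against WT for the 10 genes (down) in the 13 mutant groups (across), with red above and blue below WT; bold values passed the test and n.t. means not tested. CTT1 is deepest in gcn5 ts2 (4.97) and esa1 ts2 (4.61), TRX1 is blue in all 7 groups with ts2, and the 4 columns on the right hold no call.

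The order of the groups differed between members. How many of all genes lie outside the range of the ts2 arrays in a double mutant was not counted. For CTT1 the arrays lay at 4.82 and 5.12 in gcn5 ts2, at 4.75 and 4.47 in esa1 ts2, at 3.15 and 2.86 in sas3 ts2, at 1.95 and 3.49 in hpa2 ts2, at 1.78 and 2.61 in elp3 ts2 and at 2.01 and 2.03 in hat1 ts2. The gcn5 ts2 and esa1 ts2 arrays lay above all others and did not overlap each other, while those of sas3 ts2 fell among the ts2 arrays and those of hpa2 ts2 on either side of them. Against WT the changes correspond to a 31.4-fold rise in gcn5 ts2 and a 24.5-fold rise in esa1 ts2, rank 2 of 5540 and rank 3 of 5530 genes. SOD1 had the same 2 groups on top, at 3.63 and 3.41 in esa1 ts2 and at 3.54 and 3.03 in gcn5 ts2, which overlap. Its other double mutants lay between 1.27 (hat1 ts2) and 2.64 (sas3 ts2), against 1.61 to 2.38 on the ts2 arrays.

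TSA2 and TRX2 lay lower on the gcn5 ts2 arrays than on the esa1 ts2 arrays, a difference that was not itself tested. TSA2 lay at 3.21 and 3.07 in esa1 ts2, above every other array, and at 0.68 and 1.16 in gcn5 ts2, below every ts2 array. The other double mutants were sas3 ts2 (2.23 and 1.99), hpa2 ts2 (1.29 and 2.42), hat1 ts2 (1.03 and 1.94) and elp3 ts2 (1.25 on both). Both sas3 ts2 arrays lay within the ts2 range, both elp3 ts2 arrays below it, and hpa2 ts2 and hat1 ts2 had 1 array inside and 1 below. Array A of hat1 ts2 was lower than array B of gcn5 ts2, so these groups overlapped. TRX2 lay at 0.68 and 0.91 in gcn5 ts2, the lowest of the double mutants, and at 1.14 and 1.35 in hat1 ts2. In hpa2 ts2 (2.05 and 2.00), esa1 ts2 (2.01 and 1.99), sas3 ts2 (2.01 and 1.85) and elp3 ts2 (2.14 and 1.72) every array was above the highest ts2 array at 1.62.

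TRX1 was lowest in sas3 ts2 (-2.18 and -1.81) and hpa2 ts2 (-2.13 and -1.62), followed by elp3 ts2 (-1.58 and -1.79). All but array A of elp3 ts2 lay within the ts2 range, and that array just above it. It was least low in hat1 ts2 (-1.14 and -1.30), esa1 ts2 (-1.37 and -1.20) and gcn5 ts2 (-1.18 and -1.53), where every array was above the highest ts2 array at -1.59. AHP1 was highest in gcn5 ts2 (3.28 and 2.65) and esa1 ts2 (2.59 and 2.64), above all ts2 arrays, and lowest in hat1 ts2 (0.52 and 1.10) and elp3 ts2 (1.15 and 0.97), below all of them.

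**Figure D3:**
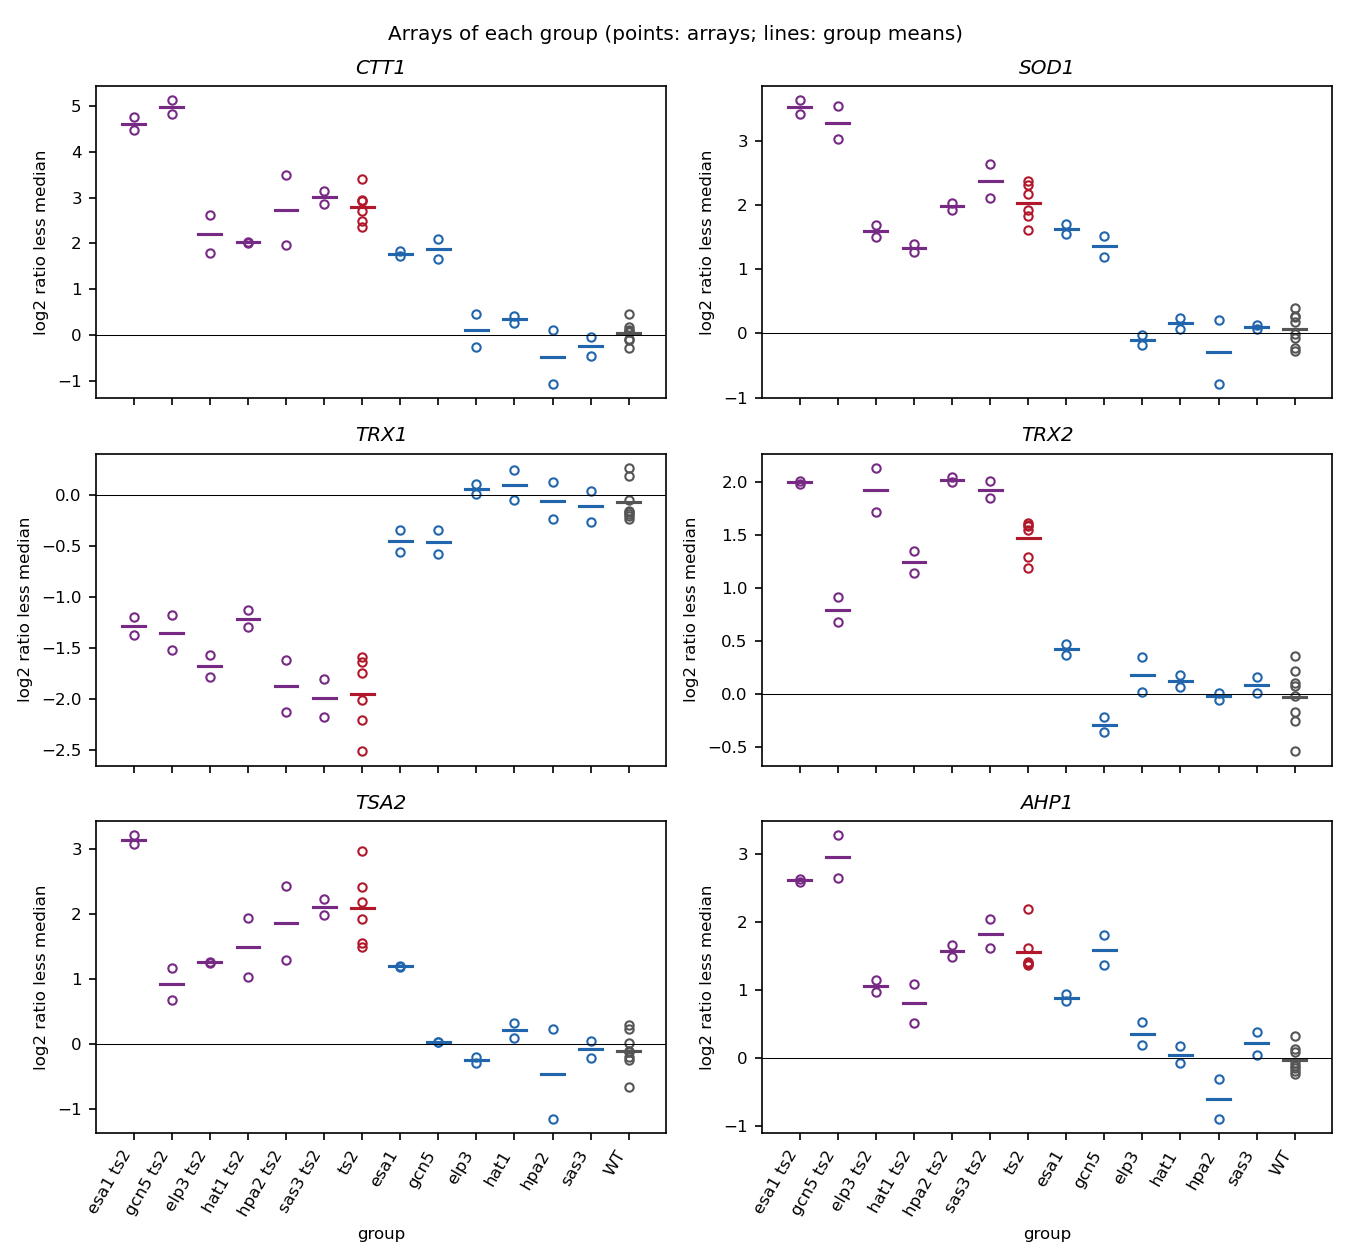
Log2 ratio less the array median for 6 genes on the arrays of the double mutants (purple), ts2 (red), the HAT mutants (blue) and WT (grey); points are arrays and lines group means, and each panel has its own scale. CTT1, SOD1 and AHP1 peak in esa1 ts2 and gcn5 ts2, while TRX2 and TSA2 are low in gcn5 ts2 (0.68 and 0.91, and 0.68 and 1.16).

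SOD2 lay between 0.55 (hat1 ts2 A) and 2.23 (esa1 ts2 A) over the double mutants, and the change in hat1 ts2 (0.81, SE 0.34) did not pass (adjusted p = 0.0672), though it did without WT array D (adjusted p = 0.00618). Its calls were lost without either elp3 ts2 array, without hpa2 ts2 array B (1.04, adjusted p = 0.106) and without sas3 ts2 array A (0.92, adjusted p = 0.155). TSA1 lay at 2.42 and 2.46 in esa1 ts2, above all ts2 arrays, and at 0.74 and 0.90 in hat1 ts2, below all of them, with the other 4 groups between 1.44 and 1.99. PRX1 lay between 1.48 (hat1 ts2 A) and 2.91 (gcn5 ts2 B). GLR1 lay at -0.21 and 3.43 on the 2 hat1 ts2 arrays, and between -0.63 and 0.32 on the other double mutant arrays that held a value.

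Set against ts2 instead of WT, the double mutants show how each of these strains differs from the strain labelled with the TAF1 allele alone. Over the 6 comparisons 21 member calls were made, 14 higher and 7 lower, and 1 on the deposited scale. They all use the same 6 ts2 arrays, so a shift of those arrays would enter all 6.

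In esa1 ts2, 7 of the 9 members tested were higher than in ts2 and none lower, where 24.1% of all genes passed. CTT1 was 3.50-fold higher (1.81, SE 0.30, adjusted p = 6.58e-05) and SOD1 2.80-fold (1.49, SE 0.21, adjusted p = 1.03e-05). AHP1 was higher by 1.05 (SE 0.21), TSA2 by 1.05 (SE 0.32), TSA1 by 0.71 (SE 0.13), TRX1 by 0.66 (SE 0.20, that is, less low than in ts2) and TRX2 by 0.53 (SE 0.16). PRX1 (0.08, 95% interval -0.22 to 0.38) and SOD2 (0.45, -0.35 to 1.24) did not pass. Without esa1 ts2 array A or B 4 of these 7 calls were left, as TRX1, TRX2 and TSA2 were lost. On the deposited scale none of the 7 passed, and TRX1 (-0.0027) and TRX2 (-0.14) turned their sign.

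In gcn5 ts2, 7 of 10 members differed from ts2, 5 higher and 2 lower, where 23.3% of all genes passed. CTT1 was 4.49-fold higher (2.17, SE 0.30, adjusted p = 3.66e-06), AHP1 2.65-fold (1.40, SE 0.21, adjusted p = 1.32e-05) and SOD1 2.37-fold (1.25, SE 0.21, adjusted p = 5.93e-05). TRX1 was higher by 0.60 (SE 0.20) and PRX1 by 0.40 (SE 0.15, adjusted p = 0.0467). TSA2 was 2.25-fold lower (-1.17, SE 0.32, adjusted p = 0.00864) and TRX2 1.60-fold lower (-0.68, SE 0.16, adjusted p = 0.00207). Transcripts of catalase, Sod1 and Ahp1 were thus higher, and those of Trx2 and Tsa2 lower, on the same 2 arrays. Without gcn5 ts2 array A 3 calls were left (CTT1, SOD1 and AHP1), with TSA2 at -1.03 (adjusted p = 0.149) and TRX2 at -0.49 (adjusted p = 0.146). On the deposited scale CTT1 alone passed (1.93, adjusted p = 0.0264). Within the range of title numbers that holds gcn5 ts2, TRX2 was at -0.59 (adjusted p = 0.0568) and PRX1 at 0.30 (adjusted p = 0.203). The a-specific mating genes were also high in gcn5 ts2, 3 of 7 called with AGA2 at 4.53 and MFA2 at 4.08 above WT, and array medians of 1.38 and 2.83, against -0.11 to 0.35 on ts2 arrays. Their part in these differences was not tested.

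In hat1 ts2, 5 of 10 members differed from ts2, 4 lower and 1 higher, where 5.01% of all genes passed. TSA1 was lower by 1.88-fold (-0.91, SE 0.13, adjusted p = 0.000247), PRX1 by 1.78-fold (-0.83, SE 0.15, adjusted p = 0.00222), AHP1 by 1.69-fold (-0.75, SE 0.21, adjusted p = 0.0342) and SOD1 by 1.64-fold (-0.71, SE 0.21, adjusted p = 0.0463). TRX1 was less low than in ts2, by 0.73 (SE 0.20, adjusted p = 0.0319). All 5 values thus lay nearer to WT in hat1 ts2. Without hat1 ts2 array A 1 call was left (TSA1), and without array B 3, as without ts2 array A. Within the range of title numbers that holds hat1 ts2, none of the 5 passed (adjusted p of 0.201 to 0.309), with values from -0.73 to -0.55 for the 4 lower genes and 0.91 for TRX1. On the deposited scale the 4 lower genes lay between -0.27 and -0.07 and none passed.

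Few members passed in the other 3 groups. All elp3 ts2 and hpa2 ts2 arrays came from the lowest range of title numbers, which holds no ts2 array. In these groups a difference from ts2 cannot be told apart from a difference between ranges. In elp3 ts2 1 of 10 passed, PRX1 (-0.67, SE 0.15, adjusted p = 0.00581), where 10.1% of all genes did, and without elp3 ts2 array B it did not (-0.41, adjusted p = 0.186). The members' median difference in elp3 ts2 was -0.47, and 7 of 10 had an unadjusted p below 0.05. In hpa2 ts2 1 of 10 passed, TRX2 (0.55, SE 0.16, adjusted p = 0.0312), where 7.01% of all genes did and 1 of 10 members had an unadjusted p below 0.05, and without either hpa2 ts2 array it did not (0.59 and 0.52). In sas3 ts2 none of 9 passed limma's test, where 0.181% of all genes did, and 1 of 9 had an unadjusted p below 0.05 (TRX2, 0.46).

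**Figure D4:**
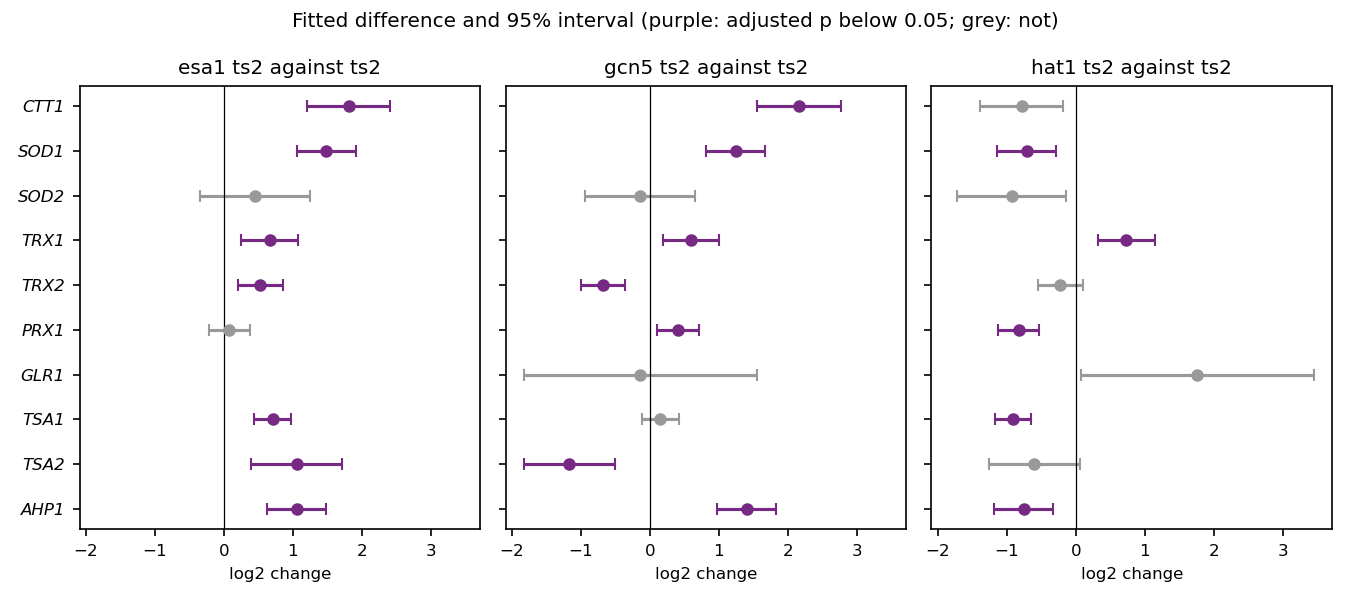
Fitted log2 difference from ts2 with its 95% interval for the 10 genes (down) in esa1 ts2, gcn5 ts2 and hat1 ts2 (across); purple passed the test and grey did not. CTT1, SOD1 and AHP1 lie right of 0 in both esa1 ts2 and gcn5 ts2, TRX2 (-0.68) and TSA2 (-1.17) left of it in gcn5 ts2, and most members left of it in hat1 ts2.

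The effect of ts2 was also read within each HAT background, as the double mutant against its own HAT mutant. There were 50 member calls over the 6 backgrounds, 44 higher and 6 lower, and each of the 6 lower ones was TRX1. They were 8 of 10 in elp3 ts2 against elp3 (25.8% of all genes), 9 of 9 in esa1 ts2 against esa1 (33%), 7 of 10 in gcn5 ts2 against gcn5 (25.8%), 8 of 9 in hat1 ts2 against hat1 (16.6%), 9 of 10 in hpa2 ts2 against hpa2 (36.5%) and 9 of 9 in sas3 ts2 against sas3 (35.3%). Only 7 calls were left on the deposited scale, where CTT1, called in hpa2 and sas3, was at 2.31 in gcn5, 2.24 in esa1, 1.47 in hat1 and 1.35 in elp3 without passing, and TRX1 between -2.49 (elp3) and -1.43 (esa1). CTT1 rose in every background, by 3.25 in sas3, 3.20 in hpa2, 3.09 in gcn5, 2.84 in esa1, 2.09 in elp3 and 1.68 in hat1 (SE 0.36 each, n = 2 arrays against 2). TRX1 fell in every background as well, by 1.88 in sas3, 1.82 in hpa2, 1.74 in elp3, 1.32 in hat1, 0.89 in gcn5 and 0.84 in esa1 (SE 0.24 each). TSA2 rose in 5 of 6 backgrounds, by 1.27 to 2.32, and did not pass in gcn5 (0.90, SE 0.39, adjusted p = 0.0987). SOD2 passed in esa1, hpa2 and sas3 (1.49 to 1.76) and not in elp3, gcn5 and hat1 (1.004 to 1.30, adjusted p of 0.0604 to 0.129), where it passed without WT array D. GLR1 did not pass in the 3 backgrounds where it was tested.

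Interactions ask whether the double mutant departs from the sum of its 2 single mutants on the log2 scale. Of the members, 5 such terms passed over the 6 HAT genes. They were PRX1 with elp3 (1 of 10, where 0.725% of all genes passed), TRX1 with esa1 (1 of 9, 4.92%), TRX1 with gcn5 (1 of 10, 0.993%), and PRX1 and TSA1 with hat1 (2 of 9, 0.409%). None of 10 passed with hpa2 (1.81% of all genes) and none of 9 with sas3 (0% of all genes) by limma, where 2 and 0 members had an unadjusted p below 0.05.

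TRX1 stood 1.12 above the sum of the single mutants in esa1 ts2 (SE 0.26, adjusted p = 0.0111) and 1.06 above it in gcn5 ts2 (SE 0.26, adjusted p = 0.0443). Its double mutant changes from WT of -1.29 and -1.35 were thus smaller in size than that of ts2 alone (-1.95). TSA1 stood 0.99 below the sum in hat1 ts2 (-0.99, SE 0.17, adjusted p = 0.00912). PRX1 stood 0.88 below it in hat1 ts2 (-0.88, SE 0.19, adjusted p = 0.0466) and 0.80 below it in elp3 ts2 (-0.80, SE 0.19, adjusted p = 0.0494). No ts2 array shares the range of title numbers of the elp3 and elp3 ts2 arrays. The elp3 term thus cannot be told apart from a difference between ranges. For CTT1 the term was 0.03 in esa1 ts2 (95% interval -0.77 to 0.83) and 0.29 in gcn5 ts2 (-0.51 to 1.09). For SOD1 it was -0.14 (-0.71 to 0.42) and -0.11 (-0.67 to 0.46). None of these passed, but the intervals are wide, and that of CTT1 in gcn5 ts2 holds the 1.06 of TRX1. For TSA2 with gcn5 the term was -1.19 (SE 0.43) and did not pass (adjusted p = 0.207). These 5 calls are weak. Their number was 1 to 6 when single arrays were left out and 0 on the deposited scale. Of the 5, TSA1 with hat1 was lost only without hat1 ts2 array A (-0.91, adjusted p = 0.0592) and TRX1 with esa1 only without esa1 ts2 array B (1.04, adjusted p = 0.102) or esa1 array A (1.02, adjusted p = 0.128), while the other 3 were lost without many of the arrays, also those of other groups.

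Over the 13 mutant changes, the members' patterns could be likened to each other, as a description of 13 points that share the WT reference and, in 7 of them, the ts2 allele. Pearson's r was 0.99 between CTT1 and SOD1, 0.97 between CTT1 and AHP1 and 0.96 between SOD1 and AHP1. TRX2 was closest to TSA2 (0.89) and TSA1 (0.88) and least like AHP1 (0.56) and CTT1 (0.67). TSA2 likewise was closest to TSA1 (0.92) and least like AHP1 (0.69). TRX1 ran against all others, from -0.68 with AHP1 to -0.92 with PRX1, and at -0.90 with TRX2. GLR1 was not tested in all 13 groups and was left out.

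Among 4874 other genes with a standard name, those most like CTT1 were MCR1 (r = 0.99), which encodes a mitochondrial NADH-cytochrome b5 reductase, and the aldehyde dehydrogenase genes ALD3 and ALD2 (0.99 each). MCR1 changed by 1.49 in ts2, by 1.18 in esa1 and by 0.96 in gcn5. SOD1 was most like ASH1 (0.99), which encodes a repressor of mating type switching, MCR1 and CTT1. TRX2 was most like TMC1 (0.99), CDC48 (0.98), an ATPase that extracts ubiquitinated proteins, and HMRA2 (0.98), whose sequence recurs at the mating type loci. TMC1 changed by 1.08 in ts2, by 0.42 in esa1 and by -0.24 in gcn5, which is the order of TRX2. TSA2 was most like HFD1 (0.98), DAK1 (0.98), a dihydroxyacetone kinase gene, and TMA17 (0.97), and TSA1 most like ADE3 (0.99), the trehalase gene NTH1 (0.99) and SCM3 (0.98). PRX1 was nearest to the glycerol phosphatase gene GPP2 (0.99), ADE2 (0.98) and HRK1 (0.98), AHP1 to CUP9 (0.98), the carbonic anhydrase gene NCE103 (0.98) and the cyclin gene CLN3 (0.97), and SOD2 to GCY1 (0.98), SHM2 (0.98) and GOR1 (0.97). TRX1 was nearest to MNL2 (0.98), SPO12 (0.98) and ACL4 (0.97), of which SPO12 lay at -1.54 in ts2, -0.21 in esa1 and -0.20 in gcn5.

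The other genes of the redox system were followed as 54 genes in 5 lists. They were the glutathione system, the partners of thioredoxin and peroxiredoxin, the helper list, the supply of NADPH, and regulators. The helper list holds other peroxidase and catalase genes along with the helpers of dismutase. In ts2, 45 of the 54 passed, 28 higher and 17 lower, against the 65.2% of all genes given above, and their median change was 0.24. The deposited scale gave 25 calls, 11 higher and 14 lower. In esa1 26 passed (21 higher and 5 lower), where 28.8% of all genes did, in gcn5 14 (11 higher and 3 lower), where 18.5% of all genes did, in elp3, hat1 and hpa2 none by limma (4, 1 and 9 with an unadjusted p below 0.05), and in sas3 1.

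Of the glutathione system 6 of 16 genes were higher in ts2 and 6 lower (median -0.13), near the shares of all genes (32% higher and 33.2% lower). The glutaredoxin gene GRX1 rose by 2.23, the glutathione transferase gene GTT1 by 1.70 and GRX2 by 1.59, while GRX7 fell by 0.83, GRX3 by 0.82 and the glutathione synthetase gene GSH2 by 0.59. All 7 partners of thioredoxin and peroxiredoxin passed in ts2, 6 of them higher. Sulfiredoxin, which restores over-oxidised peroxiredoxin, had its gene SRX1 higher by 1.52, the methionine sulfoxide reductase gene MXR1 by 0.95 and the mitochondrial thioredoxin gene TRX3 by 0.85, and the other reductase gene MXR2 fell by 0.22.

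Of the helper list 5 of 7 genes were lower in ts2, and the enzyme genes CCP1 and CTA1 were not among them. The counts of this and the next 2 lists stand beside 32% of all genes higher and 33.2% lower. The copper chaperone gene ATX1 fell by 1.21, CCS1, which loads copper into Sod1, by 0.51 and the copper transporter gene CTR1 by 0.47, while the cytochrome c peroxidase gene CCP1 rose by 1.03 and the peroxisomal catalase gene CTA1 by 0.47. SOD1 and its own chaperone gene CCS1 thus lay on opposite sides of WT. Of 13 genes for NADPH supply 8 rose, led by SOL4 (2.34), IDP2 (2.18) and GND2 (1.90), and 2 fell, RKI1 (-1.57) and RPE1 (-0.53). Of 11 regulator genes 6 rose, led by MSN2 (0.72), CAD1 (0.65) and the oxidant sensor gene YAP1 (0.49), and 3 fell, MSN4 (-0.67), HOG1 (-0.43) and SLN1 (-0.22).

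In esa1 the NADPH supply list had 9 of 13 genes higher and none lower (median 0.83), led by TKL2 (1.56), SOL4 (1.44) and GND2 (1.21). Of all genes 28.8% passed in esa1, in either direction. SRX1 rose by 1.24 and the thioredoxin reductase gene TRR1 by 0.60, while the peroxiredoxin gene DOT5 (-0.91), TRX3 (-0.59) and MXR2 (-0.36) fell. DOT5 thus moved opposite to PRX1, TSA1, TSA2 and AHP1 in esa1. In the same strain 6 of 16 glutathione genes rose (GRX2 by 0.90, GTT1 by 0.71 and GSH1 by 0.68) and 2 fell (GRX7 by 0.45 and GSH2 by 0.39). Of the regulators 4 of 11 rose (MSN2 by 0.68, HOG1 by 0.55 and YAP1 by 0.54), and none of the 7 genes of the helper list passed. In gcn5 the calls were fewer, where 18.5% of all genes passed. TKL2 (1.71), ALD6 (1.01) and ZWF1 (0.71) rose and RKI1 fell by 0.66 among the NADPH genes, and MXR1 (0.998) and TRX3 (0.60) rose among the partners. In gcn5 ATX1 (0.93) and CCP1 (0.41) rose and CTR1 fell by 0.64, MSN4 (0.88) and YAP1 (0.34) rose and HOG1 fell by 0.94, and HYR1 (0.65) and GRX2 (0.50) rose.

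With ts2 added, 41 of the 54 passed in esa1 ts2 (29 higher and 12 lower) and 34 in gcn5 ts2 (20 higher and 14 lower), each against WT, where 56.3% and 54.1% of all genes did. TKL2, a transketolase gene, was among the highest in both, at 3.84 in esa1 ts2 and 4.05 in gcn5 ts2, against 1.65 in ts2 alone. SRX1 rose by 2.67 in esa1 ts2 and by 2.28 in gcn5 ts2. DOT5 was called lower in esa1 ts2 (-1.44) and was not called in gcn5 ts2 (-0.27). MSN4 rose in both, by 0.72 and 1.27, and HOG1 rose by 0.47 in esa1 ts2 and fell by 1.79 in gcn5 ts2.

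**Figure D5:**
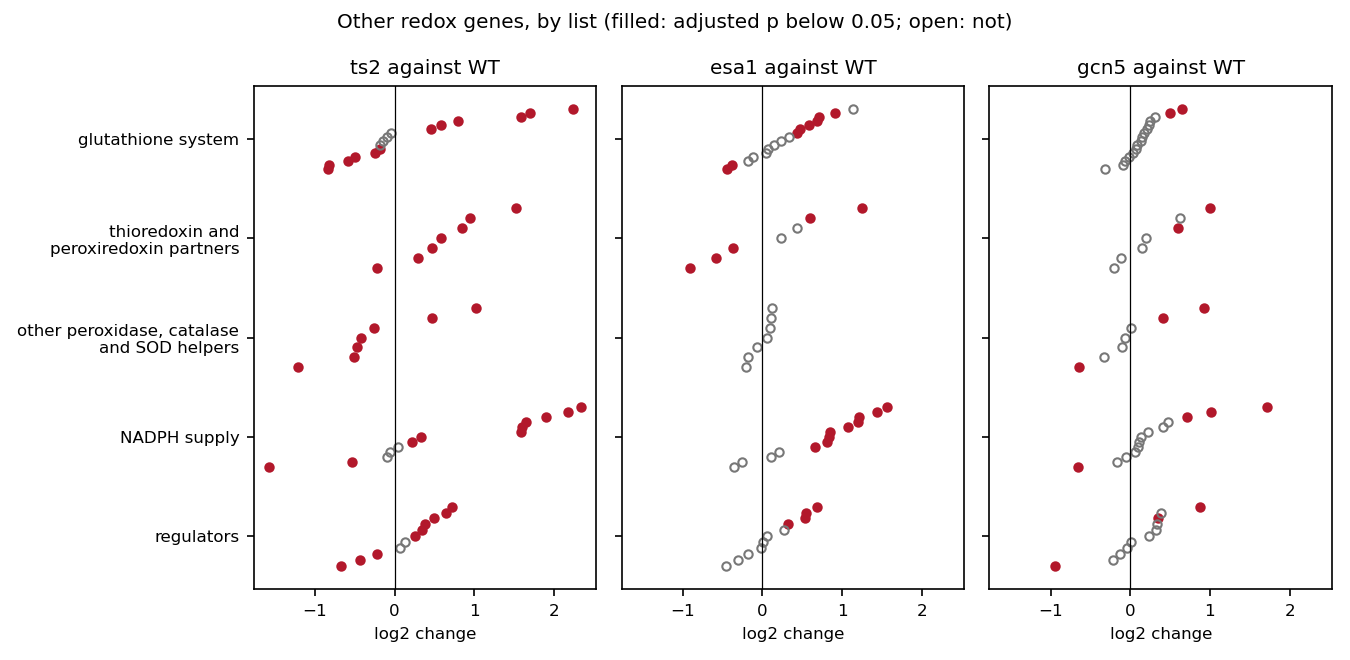
Fitted log2 change against WT of the 54 other redox genes in 5 lists (down) in ts2, esa1 and gcn5 (across); each point is a gene, and filled points passed the test. In ts2 the NADPH genes run from -1.57 (RKI1) to 2.34 (SOL4) with a gap in the middle. Most genes of the helper list lie below 0 in ts2, while in gcn5 most points are open.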

How the data were processed

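Each deposited column holds, per the labels, 1 value per spot for a strain over the WT reference, a linear ratio that the authors deposited without a stated scale. Some values were not above 0 (0.822 to 4.35% of named spots per array) and were set to missing. Per the series description, dye swaps were normalized by their mode and corrected by Bacillus subtilis spikes added per OD600. Whether the deposited ratios come before or after these steps, and the image software, are not given in the sources used here. Spot intensities were not analysed here, so the number of arrays limits the precision.

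Of 7056 spots, 5579 carried a gene name, and 5574 of those matched the RefSeq gene table (R64). Ratios were turned to log2, spots of a gene averaged and each array's median over genes subtracted. One linear model per gene over 38 arrays (14 parameters, 24 residual degrees of freedom, prior of 2.89 degrees) held a term for each mutant group, WT at 0 and a dye term, with limma 3.58.1 in R 4.3.3. A gene was tested where 4 of 6 ts2 arrays, 6 of 8 WT arrays and both arrays of other groups held a value. WT arrays took the dye sign of the array with the same title number (7 arrays) or letter (WT array E). The model was tested on simulated data.

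The members and lists were chosen with earlier results of these data known. All members were named, with up to 3 called genes of each partner list in each direction and the 3 genes most like each member. Alternatives were the deposited scale, no dye term, no WT dye sign, WT arrays left out, title-number ranges (4 runs of the leading number of the titles, which the labels do not call batches) as a block or alone, arrays of 1 title number as a random block (correlation 0.227), averaged dye swaps, a replicate block, array weights, no filter, hpa2 array A turned, and each array left out. The array letters A and B stand for the dye orientation in the HAT and double mutant groups. Differences between arrays A and B correlated at 0.222 to 0.462 between each HAT mutant and its double mutant.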

Additional observations from a re-analysis of the deposited data

Results flagged for a closer look

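On WT array D, SOD2 lay at -1.97, with the next lowest WT array at -0.44, and GLR1 lay at -2, with the next at -0.62. On ts2 array A, AHP1 lay at 2.19, with the next highest ts2 array at 1.62. These 3 came from 20 checks of a gene's 5 to 8 arrays in ts2 or WT for a sample far from the others, where chance gives about 1 in 20 per check. Without WT array D, SOD2 passed in 7 further comparisons, among them hat1 ts2 against WT (0.81, adjusted p = 0.00618) and esa1 against WT (0.70, adjusted p = 0.0185).

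By the interaction test, the effect of ts2 differed with the HAT background in 5 cases. These calls are weak, with 0 left on the deposited scale and 0 with dye swaps averaged. The term was 1.12 for TRX1 with esa1 and 1.06 for TRX1 with gcn5, -0.8 for PRX1 with elp3, -0.88 for PRX1 with hat1 and -0.99 for TSA1 with hat1. For TRX1 the change from WT was -1.29 in esa1 ts2 and -1.35 in gcn5 ts2, -1.95 in ts2 and -0.45 and -0.46 in the 2 HAT mutants.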

How the results depend on the processing

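Of 151 calls of members over all 31 comparisons, each setting but the deposited scale kept the direction, and 125 (dye swaps averaged) to 151 (no filter on missing values) stayed past the threshold where all groups entered the fit. Leaving out each array in turn kept 5533 of 5738 calls and turned none. The count for ts2 against WT was 9 in every setting. On the deposited scale 59 of the 151 calls were kept, 88 were lost and 4 turned: TRX2 in esa1 against WT (-0.0204) and in esa1 ts2 against ts2 (-0.14), TRX1 in esa1 ts2 against ts2 (-0.0027), and AHP1 in elp3 ts2 against elp3 (-0.0454). Counts there were 2 in gcn5, 0 in esa1, 1 against ts2, 7 against the HAT mutants, 0 interactions and 25 redox partners, and the cause was not tested. The share of all genes called on that scale is not given here. With dye swaps averaged, 9 calls against ts2 and 0 interactions were left. Interactions numbered 3 with no dye term, with no WT dye sign and with hpa2 array A turned, and 2 with WT arrays left out. With single arrays left out, calls ran from 5 to 9 in esa1 against WT (5 without esa1 array A), and interactions from 1 to 6. With the replicate block, the pairing of arrays by letter, there were 10 calls in esa1, 5 in gcn5 and 51 against the HAT mutants, from a fit over HAT and double mutant arrays alone, which gives no count for ts2, and it turned no call. A group cut to 1 array borrowed its spread from the rest. A group of 2 arrays limits what can be detected, most of all for GLR1 and SOD2.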
